A study of Mus musculus with 18 samples.

Results

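Loss of EED in macrophages made tolerant to lipopolysaccharide (LPS) was described through the 393 distinct measurements that the authors listed for EED KO against WT LPS tolerant cells. Members were all rows of the higher and the lower sheet for this state, with rows of identical values counted once, out of 996 such measurements over the 3 states of the series. EED KO LPS tolerant macrophages (3 libraries) came from Eed fl/fl mice carrying LysM-Cre+/-, and WT LPS tolerant macrophages (3 libraries) came from littermate controls, whose own Cre and loxP status the sources used here do not give. LysM-Cre is a recombinase inserted in Lyz2, so deletion occurs in myeloid cells. All cells were bone marrow-derived macrophages, primary cells grown from flushed marrow with L929-conditioned medium. Both tolerant groups received Salmonella LPS at 100 ng/ml for 24 h, rested for 48 h in fresh medium and then received LPS at 10 ng/ml. The sources used here give neither the length of the second exposure nor the age of the mice, and do not say whether replicate numbers mark separate mice. The p-values thus reflect how far these samples vary, which may be technical. The other 4 groups, EED KO and WT macrophages that were unstimulated or only LPS primed (100 ng/ml, 24 h), also held 3 libraries each.

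EED is the subunit of Polycomb repressive complex 2 (PRC2) that reads trimethylated lysine 27 of histone H3 and stimulates the methyltransferase EZH2 or EZH1. The mark it helps to spread keeps developmental and lineage genes silent, mostly at promoters rich in CpG dinucleotides. Macrophages exposed to LPS adopt a tolerant state in which many inflammatory genes respond weakly to a further dose, while other genes, such as those of antimicrobial defence, can still be induced. The comparison addresses which transcripts depend on EED in that state.

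All values come from the authors' deposited table, whose rows hold a log fold change with its p-value before and after adjustment. No value per library was used here, so levels, their spread and the depth behind each row are unknown. The log base is not stated and was taken as 2, and the direction was read as EED KO over WT because Eed stands in the lower sheet. Standard errors are implied, namely the size of the log2 fold change over the normal quantile that its unadjusted p corresponds to. Genes are said to have risen or fallen where that table's adjusted p was under 0.05. For H2-Q1, the ratio of adjusted to unadjusted p, from the authors' deposited table, implies at least 338297 tests, against 55450 genes in the GENCODE vM21 annotation, so a row may describe part of a gene and need not hold for the whole transcript. In these bulk samples, fewer cells of a type and less RNA per cell cannot be told apart.

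EED KO tolerant macrophages had mostly higher transcripts among the listed ones. Of the 393 measurements that the authors' deposited table holds, 319 were higher and 74 lower. The test was passed by 89 that rose and 10 that fell, so 25.2% of the listed measurements passed (27.9% of the higher and 13.5% of the lower ones). In unstimulated cells 19.4% of listed measurements passed (21.8% of the higher, 11.3% of the lower), and in LPS primed cells 33.2% did (34.7% of the higher, 27.6% of the lower). The higher share was 81.2% of all listed measurements, 89.9% of those that passed and 78.2% of those that did not. Most listed differences were small, with a median absolute log2 fold change of 0.93 (1.90-fold) per the authors' deposited table, and 228 of 393 lay under 1. The 99 that passed had a median log2 fold change of 1.57, and 31 of them reached an absolute value of 2. The rows had been selected by the authors at least on size and unadjusted p. None lay under an absolute log2 fold change of 0.75 or above an unadjusted p of 0.0498 per the authors' deposited table. The selection went further if the adjustment was Benjamini-Hochberg. From Tle2 onward, adjusted p was then lower against unadjusted p than the places of the rows among those listed allow. Tests that passed are thus missing from the sheets, and the shares that passed describe listed rows only. In 36 rows the adjusted p was 1.

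**Figure D1:**
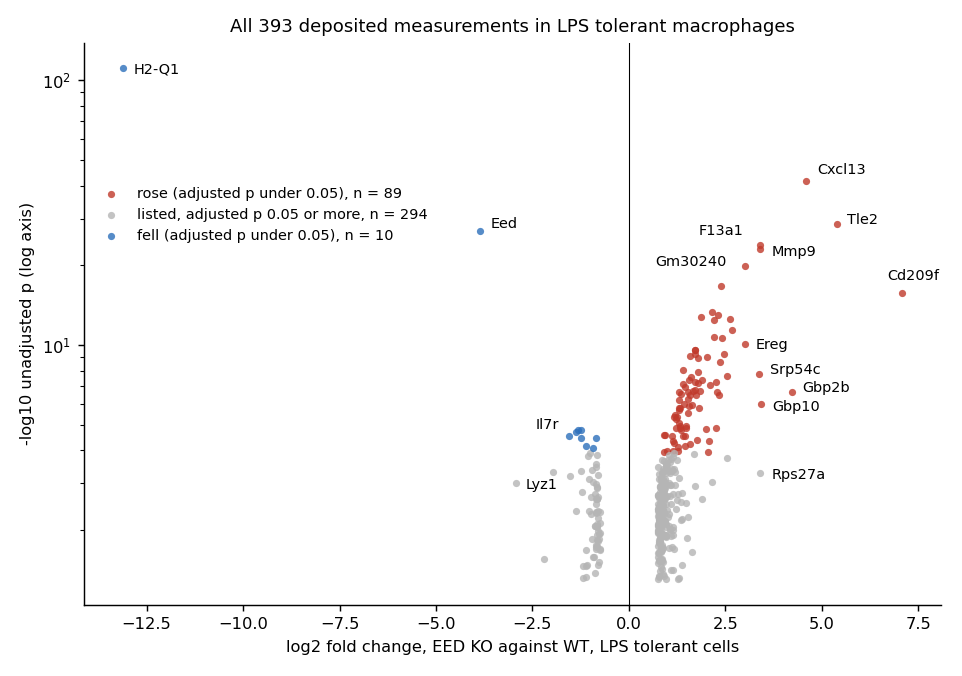
Each point is 1 of the 393 measurements of the authors' deposited table, with the log2 fold change of EED KO against WT LPS tolerant cells on the x axis and −log10 of the unadjusted p on a log y axis. Red points (89) rose, blue points (10) fell and grey points (294) did not pass. H2-Q1 and Eed stand alone on the left, and Cxcl13, Tle2 and Cd209f are the farthest red points.

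The largest rises belonged to genes of several unrelated roles. Cd209f, a C-type lectin of the DC-SIGN family, rose by 7.07 on the log2 scale (implied SE 0.86, 134-fold, adjusted p = 4.38e-13 per the authors' deposited table). Tle2, a Groucho-family corepressor, rose by 5.38 (implied SE 0.48, 41.8-fold, adjusted p = 1.03e-24 per the authors' deposited table). The B cell attractant Cxcl13 followed at 4.59 (implied SE 0.34, adjusted p = 4.19e-37 per the authors' deposited table), the smallest p of any gene that rose. F13a1, the catalytic subunit of clotting factor XIII and a gene of monocytes, rose 10.5-fold, and the gelatinase gene Mmp9 10.6-fold, per the authors' deposited table. The fold of Cd209f, as that of any gene nearly silent in 1 genotype, depends on how the authors' fit treats low counts.

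Promoter sequences are shown for the 3 largest rises and for Bmpr1a, which had the largest tolerant value among the genes that rose in all 3 states, because the mark that EED helps to spread is best known at CpG-rich promoters. These 4 were chosen after their values had been seen. Each line holds the 250 bases before the start site in RefSeq GRCm38.p6, an older build than the authors' GRCm39, 5′ to 3′ on the gene's strand, with every CG in capitals. The windows are Tle2 at chr10:81575037-81575286 (+), Bmpr1a at chr14:34502547-34502796 (−), Cxcl13 at chr5:95956689-95956938 (+) and Cd209f at chr8:4105765-4106014 (−).
Tle2: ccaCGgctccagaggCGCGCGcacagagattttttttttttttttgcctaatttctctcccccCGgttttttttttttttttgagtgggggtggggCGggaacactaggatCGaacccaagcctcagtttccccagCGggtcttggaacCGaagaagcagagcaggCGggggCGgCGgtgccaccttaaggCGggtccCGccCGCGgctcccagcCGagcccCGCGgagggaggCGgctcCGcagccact
Bmpr1a: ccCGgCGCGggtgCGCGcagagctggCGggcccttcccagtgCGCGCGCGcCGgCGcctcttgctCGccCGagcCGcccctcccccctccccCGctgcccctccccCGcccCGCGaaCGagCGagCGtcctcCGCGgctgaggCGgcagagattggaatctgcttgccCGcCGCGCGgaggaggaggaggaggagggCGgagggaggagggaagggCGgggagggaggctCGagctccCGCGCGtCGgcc
Cxcl13: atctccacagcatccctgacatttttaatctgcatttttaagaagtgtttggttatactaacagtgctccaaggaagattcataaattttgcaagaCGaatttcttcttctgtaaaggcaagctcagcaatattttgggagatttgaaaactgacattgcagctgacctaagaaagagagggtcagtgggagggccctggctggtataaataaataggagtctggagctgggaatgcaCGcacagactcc
Cd209f: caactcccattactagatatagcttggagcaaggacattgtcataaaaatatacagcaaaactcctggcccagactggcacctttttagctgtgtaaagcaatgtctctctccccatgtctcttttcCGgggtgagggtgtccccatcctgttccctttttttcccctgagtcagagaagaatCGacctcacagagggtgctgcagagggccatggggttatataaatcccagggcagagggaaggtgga

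The 4 windows were of 2 kinds by base composition. Tle2 held 21 CG in 250 bases (GC content 61.6%, observed over expected CpG 0.89) and Bmpr1a held 36 (GC content 78.8%, observed over expected CpG 0.93). Cxcl13 held 2 (GC content 42%, observed over expected CpG 0.18), and so did Cd209f (GC content 49.2%, observed over expected CpG 0.13). Of all 32851 RefSeq windows of that length, 30.8% had a GC content over 50% and a ratio over 0.6, as Tle2 and Bmpr1a did. The letters TATAAA, searched on both strands, occurred in the Cxcl13 and Cd209f windows and in 12.4% of all windows, and TGANTCA occurred in the Cd209f window and in 6.75% of all windows. A match describes the letters and not a bound site. RefSeq promoters matched 289 of 391 listed symbols (73.9%), under the 80% required, so a comparison of base composition over all listed genes would be void and none is given.

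Among Polycomb genes, the targeted gene was the one that fell. Eed stood at -3.87 (implied SE 0.36, 14.6-fold lower, adjusted p = 9.42e-24 per the authors' deposited table), and no other of 13 PRC2 subunits was listed. Of 21 subunits of the companion complex PRC1, Bmi1 was listed, at 0.97 (adjusted p = 0.114 per the authors' deposited table). Igf2bp1 and Igf2bp3, RNA-binding proteins of fetal tissues, rose by 2.32 and 1.72 per the authors' deposited table but belong to none of the gene lists. Peg10, a paternally expressed gene derived from a retrotransposon, rose by 2.26 (adjusted p = 0.00787 per the authors' deposited table). The other 2 listed of 26 imprinted genes, Dcn and Ppp1r9a, stood at 1.35 and 0.77 per the authors' deposited table and did not pass. None of 8 cyclin-dependent kinase inhibitors was listed.

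Secreted signals of leukocyte traffic rose in part. Of 38 chemokine ligands 8 were listed, 6 higher and 2 lower (81.2% of all listed measurements were higher). Their median log2 fold change was 1.30 against 0.87 over all 393 measurements per the authors' deposited table. Of the 6 higher ones 4 rose (27.9% of all higher ones did), and none of the 8 fell. Besides Cxcl13, the ligands that rose were the platelet chemokine Ppbp at 2.03 (implied SE 0.33), Cxcl14 at 1.84 (implied SE 0.35) and the monocyte attractant Ccl8 at 1.46 (implied SE 0.27) per the authors' deposited table. Cx3cl1, the ligand of Cx3cr1, stood at 1.15 and Ccl12 at 0.96, whereas Ccl9 stood at -0.86 and the neutrophil attractant Cxcl1 at -0.89, and none of these 4 passed (adjusted p of 0.111 or more per the authors' deposited table). Of 23 chemokine receptors, the fractalkine receptor Cx3cr1 rose by 1.87 (implied SE 0.25, adjusted p = 4.15e-10), and Ccr1 stood at -0.86 (adjusted p = 0.556) per the authors' deposited table. Among 30 pro-inflammatory cytokines and mediators a single gene was listed, Il1f9 (interleukin-36 gamma), which rose by 1.78 per the authors' deposited table. The epidermal growth factor receptor ligand Ereg, in no list, rose by 3.00 (implied SE 0.46, 7.99-fold, adjusted p = 1.46e-07 per the authors' deposited table).

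Few receptors and no gene of the Toll-like receptor pathway were listed. Of 65 cytokine and growth factor receptors 4 were listed, 3 higher and 1 lower (81.2% of all listed measurements were higher). None of the 3 rose (27.9% of all higher and 13.5% of all lower measurements passed). Il7r, the interleukin-7 receptor chain, fell by 1.38 (implied SE 0.32, adjusted p = 0.0109 per the authors' deposited table). Igf1r stood at 1.11, Il17ra at 0.95 and the engulfment receptor Axl at 0.78 per the authors' deposited table without passing. Il23r, outside that list, rose by 1.32 per the authors' deposited table. No gene of the Toll-like receptor pathway (33 genes), of the LPS-tolerance and negative regulators (38 genes) or of the heat shock and immediate early genes (34 genes) was listed. A gene that is not listed has no value here, so this is no measure of its change.

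In the bone morphogenetic protein and TGF-beta pathway a receptor and an extracellular regulator rose. Of 40 genes 6 were listed, all higher (81.2% of all listed measurements were), and 2 of the 6 rose (27.9% of the higher ones did). Their median was 0.94 against 0.87 over all measurements and 0.95 over the higher ones per the authors' deposited table. The list as a whole thus lay near the background. Bmpr1a, a type I receptor for bone morphogenetic proteins, rose by 2.61 (implied SE 0.36, 6.11-fold, adjusted p = 6.24e-10 per the authors' deposited table). Ltbp2, of the latent TGF-beta binding protein family, rose by 2.21 (implied SE 0.33, adjusted p = 3.71e-08 per the authors' deposited table). The inhibitory Smad gene Smad7 stood at 0.85, the target genes Id1 and Tgfbi at 1.02 and 0.80 and the coreceptor gene Eng at 0.77 per the authors' deposited table, none past the threshold. Pmepa1, a TGF-beta-induced inhibitor of that pathway outside the list, rose by 1.41 per the authors' deposited table. Of 49 genes of the Wnt pathway and TLE corepressors 2 were listed, Tle2 and its direct neighbour Tle5, a short Groucho-related protein, which stood at 0.92 (implied SE 0.25, adjusted p = 0.0840 per the authors' deposited table).

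Several genes that distinguish monocytes rose. Of 24 monocyte genes 9 were listed, 9 were higher (81.2% of all listed measurements were) and 4 rose (27.9% of the higher ones did). Their median was 1.26 against 0.87 over all measurements and 0.95 over the higher ones per the authors' deposited table. F13a1 rose by 3.40 (implied SE 0.33, adjusted p = 1.2e-20), Cx3cr1 by 1.87, Cd300e, an activating surface receptor, by 1.34 and Itgal, the alpha chain of the integrin LFA-1, by 0.98 per the authors' deposited table. Gpx3, Spn, Hp, Ly6c1 and Ly6c2 stood between 0.88 and 1.49 per the authors' deposited table and did not pass, and Ly6c1 and Ly6c2 are similar neighbouring genes whose reads can be hard to assign. C-type lectins and scavenger receptors gave 5 listed of 46, all higher (81.2% of all listed measurements were), and 2 of the 5 rose (27.9% of the higher ones did). Their median was 0.95 against 0.87 over all measurements and 0.95 over the higher ones per the authors' deposited table. Those that rose were Cd209f and the lipid scavenger receptor Cd36, Cd36 by 0.92 (implied SE 0.24, adjusted p = 0.0479 per the authors' deposited table). Marco stood at 1.52, the haemoglobin scavenger Cd163 at 0.95 and Clec4n at 0.85 per the authors' deposited table without passing. Gas6, which bridges dying cells to receptors such as Axl, rose by 1.16 (implied SE 0.29, adjusted p = 0.0251 per the authors' deposited table).

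Some markers of other cells that a marrow culture can hold were listed, and a marker that is not listed has no value here. Of 14 macrophage markers 2 were listed, Lyz2, which fell by 0.93, and C1qa at 0.96 (adjusted p = 0.698) per the authors' deposited table. Of 22 neutrophil markers Mmp8 rose by 1.30 and Lcn2 stood at 0.87 per the authors' deposited table. Of 24 erythroid, megakaryocyte and progenitor markers 2 were listed, Ppbp and Car2, and both rose. Of 12 osteoclast markers 2 were listed, Mmp9 and Car2, and both rose (27.9% of all higher measurements did). The dendritic cell list of 15 held Fscn1, which rose by 1.30, and the T and NK cell list of 20 held Il7r, which fell, per the authors' deposited table. Stromal markers Igfbp7 and Dcn (2 of 16) stood at 1.12 and 1.35, and Eng (1 of 14 endothelial and epithelial markers) at 0.77, none past the threshold, per the authors' deposited table. No B cell, mast cell, basophil or eosinophil marker was listed. Summed marker levels per library and defining markers at 0 could not be read from fold changes, and the part of these cells in the monocyte, chemokine and matrix results was not tested.

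Of the interferon-inducible genes in the lists, 2 GTPase genes rose and none of the others passed. Of 24 interferon-inducible GTPases 2 were listed and both rose (27.9% of all higher measurements did). Gbp2b rose by 4.22 (implied SE 0.82, adjusted p = 0.000212) and Gbp10 by 3.43 (implied SE 0.70, adjusted p = 0.000811) per the authors' deposited table. Both encode guanylate-binding proteins of cell-autonomous defence, and the genes of this family are similar enough that reads can be hard to assign. Of 79 other interferon-stimulated genes 5 were listed, 4 higher and 1 lower (81.2% of all listed measurements were higher). None passed (25.2% of all listed measurements did), Ly6e at 1.04 and Mndal at -0.84 per the authors' deposited table among them. Outside these lists, Ifitm1, which restricts virus entry, rose by 2.54 (implied SE 0.45) and Ifi27l2b by 2.06 (implied SE 0.53) per the authors' deposited table. Ifitm6 and Oas1c, also outside them and picked after values were seen, stood at -0.98 and -0.75 without passing, per the authors' deposited table. In LPS primed cells the same GTPase list had 11 listed, all higher, and 1 rose, and the other interferon list had 14 listed, all higher, and 2 rose, per the authors' deposited table. Of all listed primed measurements 79.8% were higher, and 34.7% of those rose. Neither Gbp2b nor Gbp10 was listed in the primed or unstimulated sheets, so no difference between states could be tested for them.

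None of the listed genes of antigen presentation passed, against 25.2% of all listed measurements. The list of 32 had 5 listed members, all higher where 81.2% of all listed measurements were, H2-Ab1 at 0.96 (implied SE 0.27, adjusted p = 0.122), H2-Eb1 at 0.94, H2-Aa at 0.80 and the peptide-loading genes H2-DMa and H2-DMb1 at 0.81 each per the authors' deposited table. The near-identical class I genes gave 7 rows for 5 of 13 genes, 4 higher and 3 lower. H2-Q1 fell by 13.12 (implied SE 0.58, adjusted p = 4.06e-106 per the authors' deposited table), a fitted value that depends on how low counts were treated and is no bound. H2-K2 appeared at 1.39 and at -1.02, and H2-Q2 at 0.90 and at -1.11, per the authors' deposited table, with none of these 4 rows past the threshold. Such genes differ between mouse strains and share reads, so all values of the class I rows are uncertain, and the part of strain differences in them was not tested.

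The list of the extracellular matrix and its proteases had the most listed members by count, though not as a share of its genes. It had 11 listed of 68 genes, where the monocyte list had 9 of 24. On the higher side were 10 and on the lower side 1 (81.2% of all listed measurements were higher). Of these, 5 rose and 1 fell (27.9% of all higher and 13.5% of all lower measurements passed). The median was 1.39 against 0.87 over all measurements per the authors' deposited table. The proteases Mmp9, Adam19 and Mmp8 rose by 3.41, 1.71 and 1.30 per the authors' deposited table. Enzymes that modify collagen rose beside them, the lysyl hydroxylase Plod2 by 1.59 (implied SE 0.31) and the cross-linking lysyl oxidase Lox by 1.43 (implied SE 0.29) per the authors' deposited table. Ctsl, the lysosomal cathepsin L, fell by 0.85 (implied SE 0.21, adjusted p = 0.0181 per the authors' deposited table). Loxl2, Tnc, Dcn, Igfbp7 and Col18a1 stood between 0.83 and 1.91 per the authors' deposited table and did not pass. Outside the list, Col19a1 rose by 2.66 and Cemip, needed for hyaluronan breakdown, by 2.08 per the authors' deposited table. F13a1 was also the gene that rose among 34 of coagulation, fibrinolysis and serpins, where the protease inhibitor Serpine2 stood at 2.17 (implied SE 0.65, adjusted p = 0.227 per the authors' deposited table).

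The list of antimicrobial and acute-phase proteins was split. Its 43 genes had 8 listed members, 4 on either side (81.2% of all listed measurements were higher). Only Lyz2 passed, which fell (27.9% of all higher and 13.5% of all lower measurements passed). The median was -0.03 against 0.87 over all measurements per the authors' deposited table. Lyz2 encodes lysozyme and carries the Cre insertion, so an effect of the insertion and of EED loss cannot be told apart for it. Its neighbour Lyz1, a near-identical gene, stood at -2.92 (implied SE 0.89, adjusted p = 0.246 per the authors' deposited table). Ang and Rnase4, which shared 1 set of values, stood at -1.01 (adjusted p = 0.0513) and the acute-phase gene Saa2 at -2.21 (adjusted p = 1) per the authors' deposited table. Ptx3, Cp, Hp and the siderophore-binding Lcn2 stood between 0.87 and 1.37 per the authors' deposited table, none past the threshold.

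Of the oxidative stress and iron genes listed, an iron exporter and a quinone reductase rose. Of 39 genes of the NRF2 list 9 were listed, all higher (81.2% of all listed measurements were), and 2 of the 9 rose (27.9% of the higher ones did). Their median was 0.90 against 0.87 over all measurements and 0.95 over the higher ones per the authors' deposited table, near both. Slc40a1, the iron exporter ferroportin, rose by 2.10 (implied SE 0.39, adjusted p = 8.69e-05), and the quinone reductase Nqo1 by 1.77 (implied SE 0.43, adjusted p = 0.0205) per the authors' deposited table. Gclc and Gclm, the subunits of the enzyme that limits glutathione synthesis, stood at 0.83 and 0.79 (adjusted p = 1 each), and Gpx3 at 1.16 (adjusted p = 0.0510), per the authors' deposited table. In primed cells the same list had 5 listed genes, 1 higher and 4 lower, where 79.8% of all listed primed measurements were higher, per the authors' deposited table. Of 41 hypoxia and glycolysis genes 3 were listed and all 3 rose (27.9% of all higher measurements did). They were the stress-response gene Ndrg1 at 1.53, the oxygen-sensing prolyl hydroxylase Egln3 at 1.45 and the collagen prolyl hydroxylase P4ha2 at 1.33 per the authors' deposited table. Atp5j, an ATP synthase subunit, was the only listed gene of 54 of the mitochondrial respiratory chain and fell by 1.25 (implied SE 0.29, adjusted p = 0.00919 per the authors' deposited table). In the list of 45 lipid and cholesterol genes, Apoc2 stood at 0.88 per the authors' deposited table, without passing.

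**Figure D2:**
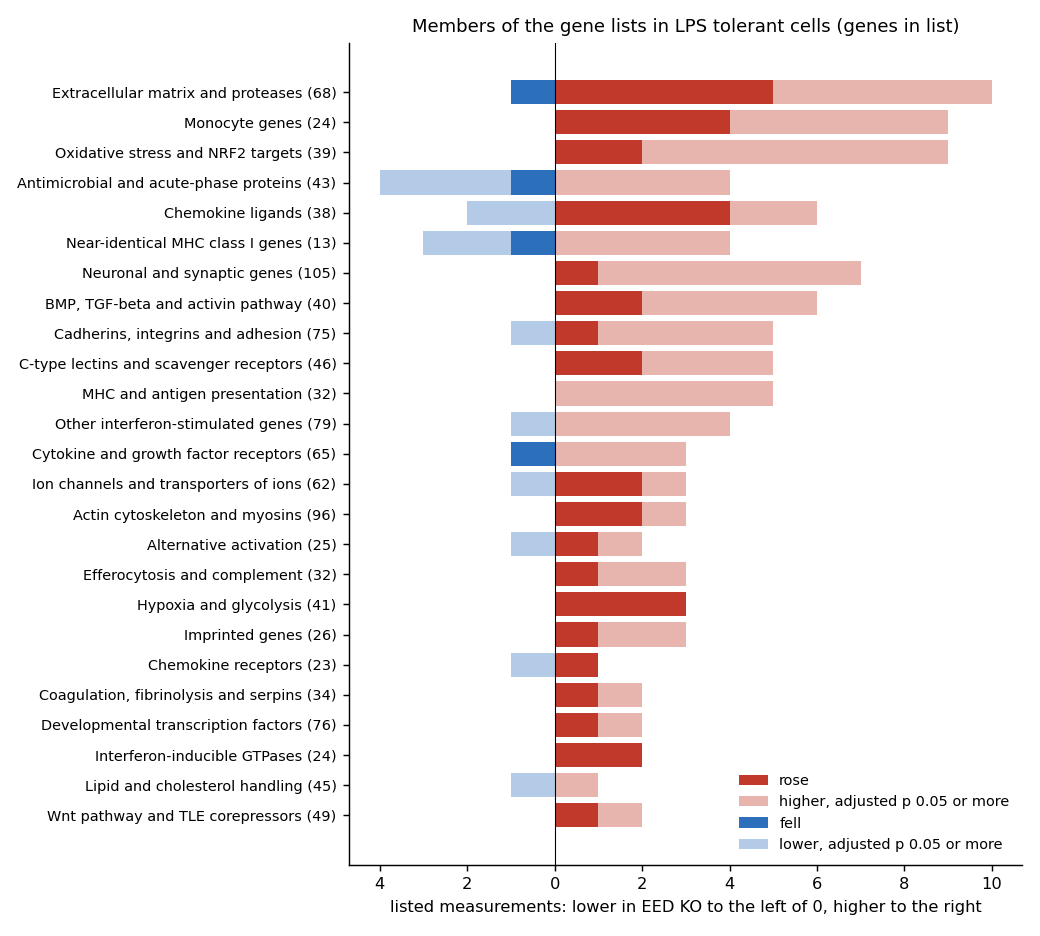
Bars give the number of listed measurements of each gene list (genes in the list in brackets) in EED KO against WT LPS tolerant cells, higher to the right of 0 and lower to the left, dark where the adjusted p of the authors' deposited table was under 0.05. The matrix list reaches 10 higher measurements and the monocyte and NRF2 lists 9 each, while the antimicrobial list is split 4 and 4.

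Transcripts better known from neurons and the cytoskeleton were also present. Of 105 neuronal and synaptic genes 7 were listed, all higher (81.2% of all listed measurements were), and 1 of the 7 rose (27.9% of the higher ones did). It was Clstn1, a cadherin-superfamily protein of synapses and vesicle transport, which rose by 2.41 (implied SE 0.36, adjusted p = 5.01e-08 per the authors' deposited table). The other 6, from the presynaptic Cplx2 at 1.71 to the scaffold Dlg4 at 0.77 per the authors' deposited table, did not pass. In the list of 62 ion channels and ion transporters, the carbonic anhydrase Car2 rose by 1.82 per the authors' deposited table. Of 96 actin and myosin genes 3 were listed, all higher, and 2 of the 3 rose (27.9% of all higher measurements did). They were the filament-bundling Fscn1 and the LIM protein Pdlim7, which rose by 1.30 and 1.31 per the authors' deposited table. Tuba1a, an alpha-tubulin in no list, rose by 2.14 (implied SE 0.28, adjusted p = 1.15e-10 per the authors' deposited table). Of 75 cadherins, integrins and adhesion genes 6 were listed, 5 higher and 1 lower (81.2% of all listed measurements were higher). Of the 5 higher ones only Itgal rose (27.9% of all higher measurements did). Itga9 stood at 1.20 and Vcam1 at -1.12 per the authors' deposited table. One set of 24 rows with identical values, 21 gamma-protocadherins and 3 predicted genes, was a single measurement at 0.83 (adjusted p = 0.665 per the authors' deposited table).

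**Figure D3:**
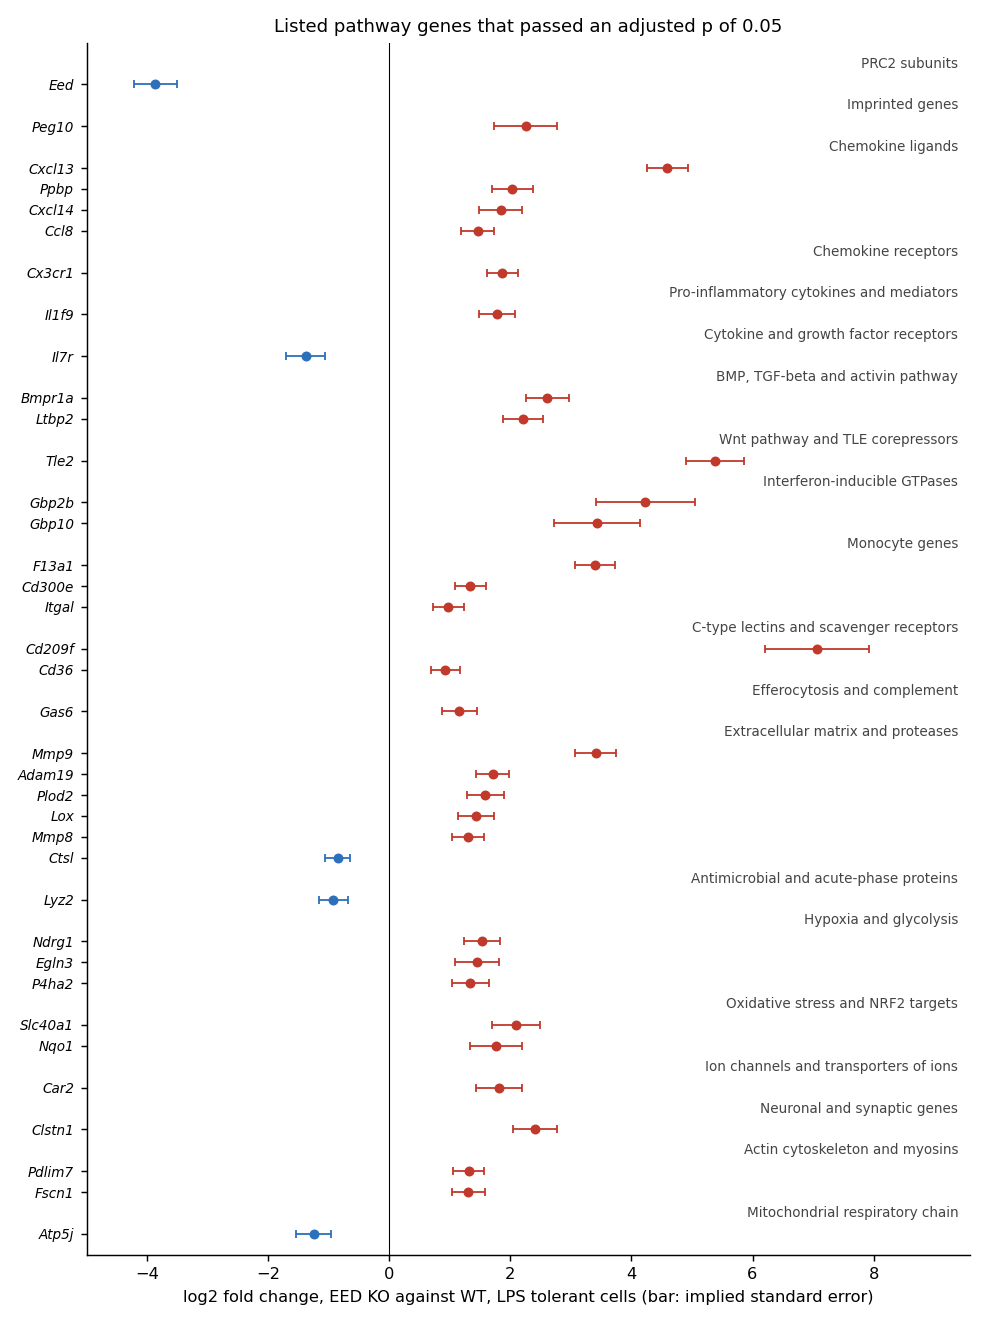
Points are log2 fold changes of EED KO against WT LPS tolerant cells from the authors' deposited table for named pathway-list genes with an adjusted p under 0.05, each shown once under the first list that holds it, and bars are implied standard errors. Rises (red) run from 0.92 for Cd36 to 7.07 for Cd209f, and 5 genes (blue) fell. H2-Q1, at -13.12, is not drawn.

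Of the 99 genes that passed, 40 belonged to a list and 59 to none. Among those 59, the complement regulator Cd55 rose by 1.71, and the adjacent membrane protein genes Tmem176a and Tmem176b by 1.71 and 1.40, per the authors' deposited table. Runx3, a transcription factor of leukocyte lineages, rose by 2.26 and the kinase genes Mast4 and Prkcb by 2.39 and 1.30 per the authors' deposited table. The tight junction molecule F11r rose by 1.80 and Heg1, a transmembrane protein of endothelial junctions, by 2.29 per the authors' deposited table. Metabolic enzymes among them included the arginine-synthesis enzyme Ass1 at 0.90 and the amine oxidase Maoa at 1.28 per the authors' deposited table. Rps2 rose by 2.00 (implied SE 0.46, adjusted p = 0.00856 per the authors' deposited table). A grouping made after the values were seen put it with 7 other ribosomal protein rows, all 8 of them higher and the other 7 not past the threshold (Rps27a at 3.41, implied SE 0.98, per the authors' deposited table). Ribosomal protein genes have many near-identical pseudogenes, so these rows are uncertain.

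The 10 genes that fell were H2-Q1, Eed, Gm2427, Il7r, Tmtc2, Atp5j, Myadm, Sirpb1a, Lyz2 and Ctsl. Apart from H2-Q1 and Eed their log2 fold changes lay between -1.55 (Gm2427) and -0.85 (Ctsl) per the authors' deposited table. Tmtc2, an endoplasmic reticulum glycosyltransferase, fell by 1.31, the membrane protein gene Myadm by 1.23 and the signal regulatory protein gene Sirpb1a by 1.11 per the authors' deposited table. Sirpb1b, next to Sirpb1a and similar to it, stood at -0.92 (adjusted p = 1 per the authors' deposited table). The threshold itself separated close values. Just inside it were Cdc42bpa, Itgal, Maoa, Ifi27l2b and Cd36, with adjusted p of 0.0429 to 0.0479, and just outside were Gpx3, Rnase4 with Ang, Tmem178, Cav2 and Pigt, with adjusted p of 0.0510 to 0.0584, per the authors' deposited table.

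Listed genes sometimes sat side by side. Of 361 measurements placed among protein-coding genes of RefSeq GRCm38.p6, 34 (9.42%) had a listed direct neighbour, which made 18 adjacent pairs, 16 of them in the same direction. Both genes rose in 1 pair, Tmem176b and Tmem176a, and in others 1 gene passed, as with Tle2 beside Tle5 or Ccl8 beside Ccl12. Several pairs are similar copies (Gstp1 and Gstp2, Ly6c1 and Ly6c2, Sirpb1a and Sirpb1b), whose reads can be shared. The corresponding shares were 15.1% in unstimulated and 12.6% in LPS primed cells, as descriptions without a test.

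Most of what was listed in tolerant cells was listed there alone. Of the 393 measurements, 41 were also listed in both other states, 74 also in primed cells only, 19 also in unstimulated cells only and 259 (65.9%) in neither. Among the 99 that passed, the counts were 18, 32, 8 and 41. The 41 include Cd209f, Ereg, Gbp2b, Gbp10, Ppbp, Il1f9, Lox, Mmp8, Car2, Nqo1 and Cd36. A gene missing from the other sheets has no value there, so for these 41 the difference between states could not be tested. Higher genes shared with primed cells numbered 90 (28.2% of the tolerant and 30% of the primed ones), and lower genes 16 (21.6% and 21.1%). With unstimulated cells, 43 higher genes were shared (13.5% of the tolerant and 24.7% of the unstimulated ones) and 14 lower ones (18.9% and 26.4%).

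**Figure D4:**
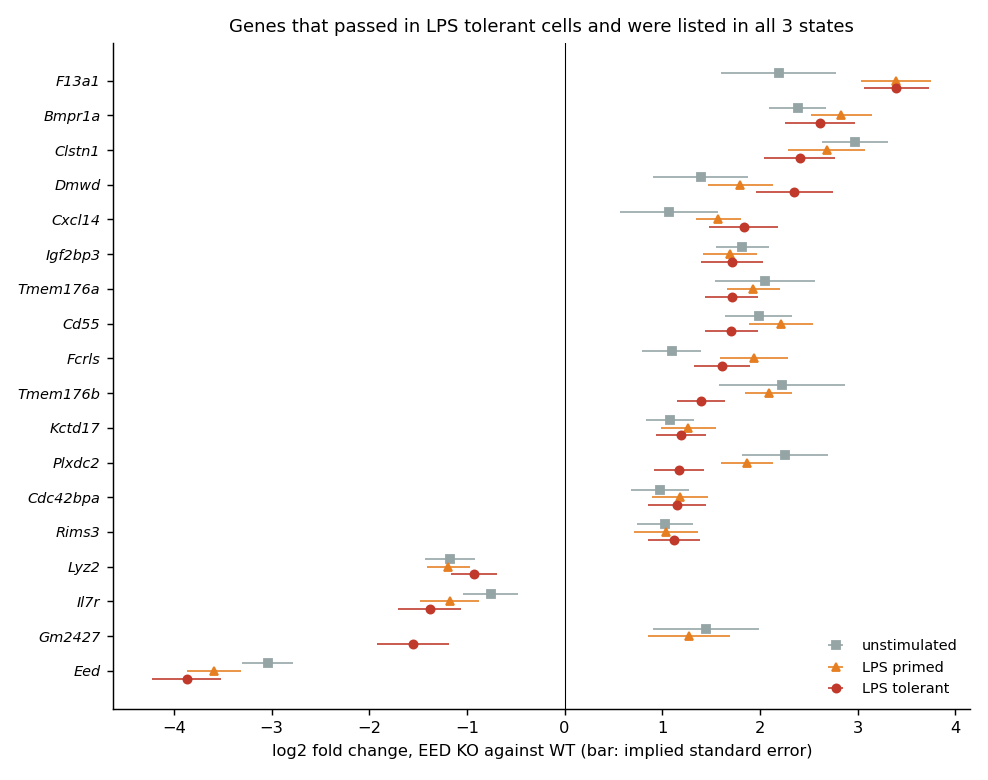
Log2 fold changes of EED KO against WT from the authors' deposited table, with implied standard errors as bars, for the 18 genes that passed in LPS tolerant cells and were listed in unstimulated (squares), LPS primed (triangles) and LPS tolerant (circles) cells. The 3 values of a gene lie on the same side of 0 except for Gm2427, which was lower in tolerant cells and higher in the other 2.

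Where a gene was listed in 2 states, the fold changes were compared by a two-sided normal test on the implied standard errors, with Benjamini-Hochberg adjustment. Tolerant and primed fold changes could be compared for 111 genes, and 8 (7.21%) differed, 3 greater and 5 smaller in tolerant cells. Tolerant and unstimulated fold changes could be compared for 58 genes, and 3 (5.17%) differed, 1 greater and 2 smaller. At an unadjusted p under 0.05 the counts were 14 and 8. These counts depend on how the standard errors are inferred. With a t quantile of 4 degrees of freedom, which makes the implied standard errors smaller, they were 49 and 29. With standard errors 1.5 times larger they were 4 and 1. Median differences were -0.09 against primed and -0.17 against unstimulated cells on the log2 scale, computed from the authors' deposited table. The tests cover only genes selected as different in both states and assume that both rows describe the same part of the gene. They also treat the fold changes of both states as independent. The same replicate numbers recur in every state, and whether the states share mice or cultures is not known.

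Tle2 differed most clearly between states. It rose by 5.38 in tolerant cells and stood at -0.94 (adjusted p = 0.161) in primed cells per the authors' deposited table, a difference of 6.33 (SE 0.56, 95% interval 5.24 to 7.42, adjusted p = 7.11e-28 by the normal test). It was not listed in unstimulated cells. Fscn1 rose in both, by 1.30 in tolerant and 2.58 in primed cells per the authors' deposited table, and the tolerant rise was smaller by 1.28 (95% interval of the difference -2.11 to -0.44, adjusted p = 0.0368 by the normal test). For Gclm the tolerant value was 0.79 and the primed value -0.78 per the authors' deposited table, a difference of 1.57 (adjusted p = 0.00445 by the normal test), although neither value passed alone. The interferon-inducible Mndal stood at -0.84 in tolerant cells and rose by 2.14 in primed cells, and Mtus1 stood at -1.20 in tolerant cells and rose by 1.45 in primed cells, per the authors' deposited table. Saa2 stood at -2.21 in tolerant and 1.95 in primed cells, and the predicted gene Gm10499 rose by 1.65 in tolerant cells and stood at -0.95 in primed cells, per the authors' deposited table. Of the 8 genes, 7 had opposite signs in the 2 states, and since every listed value is at least 0.75 from 0, opposite signs imply a difference of at least 1.5.

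Against unstimulated cells, the differing genes were Tuba1a, Gm2427 and Ly6c1. Tuba1a rose by 2.14 in tolerant cells and stood at -1.06 (adjusted p = 0.187) in unstimulated cells per the authors' deposited table, a difference of 3.21 (95% interval 2.42 to 4.00, adjusted p = 9.91e-14 by the normal test). Ly6c1 stood at 1.26 in tolerant cells and rose by 7.51 in unstimulated cells per the authors' deposited table, a difference of -6.25 with a wide interval of -9.30 to -3.19. Gm2427, an unnamed predicted gene, fell by 1.55 in tolerant cells and stood at 1.27 in primed and 1.45 in unstimulated cells per the authors' deposited table, and differed from both.

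F13a1, Mmp9, Cxcl13 and Bmpr1a rose in tolerant and primed cells, and the intervals of their differences included 0. F13a1 rose by 3.40 in tolerant and 3.40 in primed cells per the authors' deposited table, with a difference of 0.00 (95% interval -0.96 to 0.97), and Mmp9 rose by 3.41 in tolerant and 3.43 in primed cells, with a difference of -0.02 (95% interval -1.03 to 1.00). Cxcl13 rose by 4.59 in tolerant and 5.46 in primed cells per the authors' deposited table, with a difference of -0.86 (95% interval -1.85 to 0.12). Bmpr1a rose by 2.39 in unstimulated, 2.83 in primed and 2.61 in tolerant cells per the authors' deposited table, and the tolerant value differed by -0.22 from primed cells (95% interval -1.15 to 0.71). Such intervals allow differences of about 1 log2 unit and do not show that the states were alike. H2-Aa stood at 0.80 in tolerant cells and rose by 1.70 in primed cells per the authors' deposited table, and the difference of -0.91 (95% interval -1.61 to -0.20) missed the threshold after adjustment (adjusted p = 0.121 by the normal test).

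**Figure D5:**
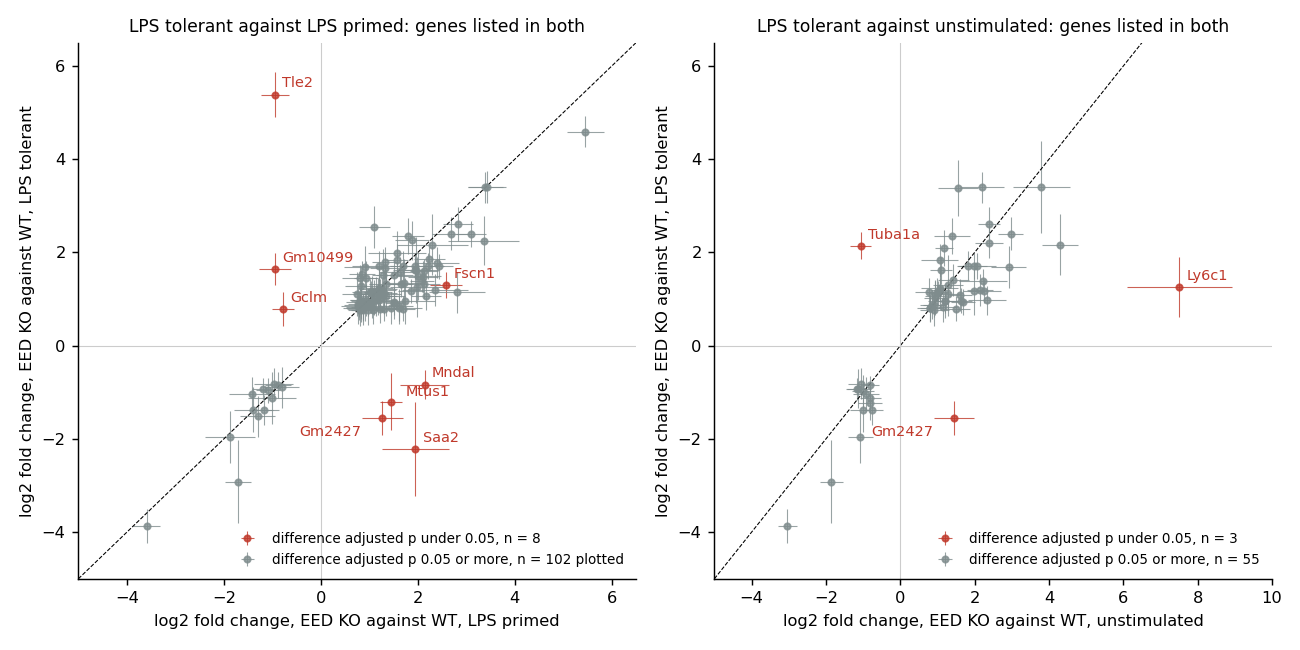
Log2 fold changes of EED KO against WT from the authors' deposited table in LPS tolerant cells (y axis) against LPS primed cells (left, x axis) and unstimulated cells (right, x axis) for genes listed in both, with implied standard errors as bars and the line of equal values dashed. Red points differed at an adjusted p under 0.05 (8 and 3 genes), with Tle2, Gm10499 and Gclm above the line on the left and Tuba1a above it on the right. H2-Q1, at -13.12 in tolerant and -9.45 in primed cells, lies outside the left panel.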

How the data were processed

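RNA-seq libraries were made from mRNA with a stranded kit and read in pairs, per the labels' protocols. The submitters' processing notes name HISAT2, R 4.0.3, edgeR and the build GRCm39, while the sources used here give no annotation, filter or exact test. Each deposited row holds a log fold change of the authors (read as log2) with its p-value before and after adjustment, and no further test of genotype was run. Depth per library is unknown.

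Rows were read with pandas 2.3.3 and rows of identical values in a state were counted once. An adjusted p under 0.05 per the authors' deposited table defined a call. Standard errors implied by the deposited p-values served for the tests between states (scipy 1.17.1), with Benjamini-Hochberg adjustment over the 111 and 58 genes tested. That test was run on simulated data drawn with the implied standard errors. Such data cannot check those errors, nor the authors' selection of rows, which was not simulated. The simulated states were drawn independently, so dependence between states was not checked either. Named genes were those past the threshold, members of the gene lists, the 10 largest changes per direction, rows on either side of the threshold, genes that differed between states, and neighbouring or repeated genes. A few pairs and groups named outside this rule are marked as chosen after values were seen. The members, the 44 gene lists and the tests were chosen with earlier results of these data known. Promoter sequences are RefSeq GRCm38.p6, and neighbours follow its gene order. A summary of base composition over the listed promoters was computed once and dropped because too few genes matched. Alternatives covered counting units, fold and p thresholds, class I genes and the inferred standard errors. A few listed genes are not reported here by name.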

Additional observations from a re-analysis of the deposited data

Results flagged for a closer look

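Fold changes of EED KO against WT differed between states, by the normal test on implied standard errors, in 11 cases. Against LPS primed cells, the tolerant log2 fold change was greater for Tle2 (difference 6.33), Gm10499 (2.59) and Gclm (1.57), and smaller for Gm2427 (-2.82), Mndal (-2.98), Mtus1 (-2.65), Saa2 (-4.16) and Fscn1 (-1.28), computed from the authors' deposited table. Against unstimulated cells it was greater for Tuba1a (3.21) and smaller for Gm2427 (-3.0) and Ly6c1 (-6.25), computed from the authors' deposited table. Gm2427 is the only gene that differed in both comparisons. For Saa2 and Gclm the adjusted p per the authors' deposited table was over 0.05 in both states, and the sign of Saa2 in tolerant cells rests on a value of -2.21 with an implied SE of 1.01.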

How the results depend on the processing

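Counting every deposited row gave 419 listed rows (344 higher, 75 lower), and distinct symbols, distinct Ensembl identifiers or leaving out symbols starting H2- also kept each count within 1.5 times. With an absolute log2 fold change of at least 1, 165 measurements were listed (140 higher, 25 lower). At an adjusted p under 0.01, 4 genes fell, and the other counts of genes past the threshold, at 0.01 or 0.1, with larger folds or without H2- symbols or repeated symbols, stayed within 1.5 times. The difference tests depended on the standard error. With a t quantile of 4 degrees of freedom 49 genes differed from primed and 29 from unstimulated cells, and all 8 and all 3 genes still differed. A t quantile exceeds the normal one at the same p and so makes the implied standard errors smaller. That these genes still differed is thus no sign of robustness. With standard errors 1.5 times larger 4 and 1 differed, and Fscn1, Gclm, Mtus1 and Saa2 against primed and Gm2427 and Ly6c1 against unstimulated cells no longer passed. No result reversed. No paired analysis was possible because no values per library were used, so neither a replicate block nor leaving out a replicate was run. The alternative for promoters of called genes was not run because too few promoters matched. The depth is unknown, so what it limits cannot be said.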

Other observations

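Genes that passed in LPS tolerant cells and are in no gene list included membrane and signalling proteins. The small GTPase gene Mras rose by 1.48 and the GTPase exchange factor gene Rapgef5 by 0.93, per the authors' deposited table. The phosphatase gene Ptp4a3 rose by 1.40, the phosphodiesterase gene Pde10a by 1.46 and the scaffold gene Nedd9 by 1.30, per the authors' deposited table. Fcrls, an Fc receptor-like gene of mouse myeloid cells, rose by 1.61, per the authors' deposited table. Ntng2, a netrin-family membrane protein, and Rims3, of the presynaptic RIM family, rose by 1.52 and 1.12 without being in the neuronal list, per the authors' deposited table. Spint2, an inhibitor of serine proteases, rose by 1.36 and the epithelial anchoring-filament gene Lad1 by 2.30, per the authors' deposited table.

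Transport and metabolic genes among them included the dicarboxylate transporter gene Slc13a3 at 1.71, the mitochondrial gene Chchd10 at 1.55 and the acyltransferase gene Agpat3 at 1.25, all of which rose, per the authors' deposited table. Apol7c, an apolipoprotein L gene, rose by 2.47, and Srp54c, one of several similar signal recognition particle genes whose reads can be hard to assign, by 3.38, per the authors' deposited table. The predicted genes Gm30240, Gm33858 and Gm44764 rose by 3.01, 2.22 and 1.59, and no role is given for them, per the authors' deposited table.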
